A study of Mus musculus with 4 samples.

Results

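The genes described here are 10 effector genes of macrophages and other myeloid cells: Ctss, Lgmn, Lyz2, Laptm5, Cd68, Tyrobp, Fcer1g, Cd14, Mrc1 and Csf1r. They were chosen by name. Every probe set whose platform annotation gives one of these symbols alone was taken, which gave 15 of 12422 probe sets for 10 of 8251 measured genes. The RNA came from the seminal vesicles of 4 Nkx3.1 +/+ (wild-type) C57Bl/6J mice aged 15 months, which were snap frozen whole and hybridised to 1 Affymetrix Mu74AV2 array per mouse. All mice had the same genotype, age and tissue and no treatment is named, so the only comparison possible is between the 4 individual mice, numbered 1 to 4. Secretory genes of the gland gave the values its label calls for, with Svs2 at 12.53 ± 0.10 and Svs4 at 12.99 ± 0.03 (SD, n = 4 mice).

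Macrophages are resident phagocytes that depend on the CSF1 receptor, sense bacterial products and immune complexes, and degrade what they take up in lysosomes. The 10 genes cover these steps. Lysozyme attacks bacterial cell walls, cathepsin S and legumain cut proteins in lysosomes, and CD14 and the mannose receptor bind microbial surfaces. TYROBP and the Fc receptor gamma chain carry signals for receptors that have no signalling tail of their own. Several of the genes are also active in other cells: Lgmn, Cd14 and Fcer1g in some epithelia or mast cells, Ctss and Laptm5 in B cells.

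Values are log2 expression values made with RMA, which subtracts background, gives all arrays like distributions and combines each set's probes, so a difference of 1 is a doubling. Arrays give no detection call here. A probe set was called above the background range when, on all 4 arrays, it exceeded a limit set by genes of other organs, the array's 90th percentile over the 106 probe sets of 85 such genes. On the arrays of mice 1 to 4 it stood at 6.02, 5.76, 5.97 and 5.94. Laptm5 and Cd14 were above the range, 2 of the 10 genes, where 32.7% of all measured genes were. With the 75th percentile as limit 6 of the 10 were, where 57.2% of all genes were. The other 8 genes lay within the range on at least 1 array, which does not show that they were silent. Levels of different probe sets cannot be set against each other, because each binds its target with its own strength. In whole tissue, fewer cells of a type and less RNA per cell cannot be told apart.

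**Figure D1:**
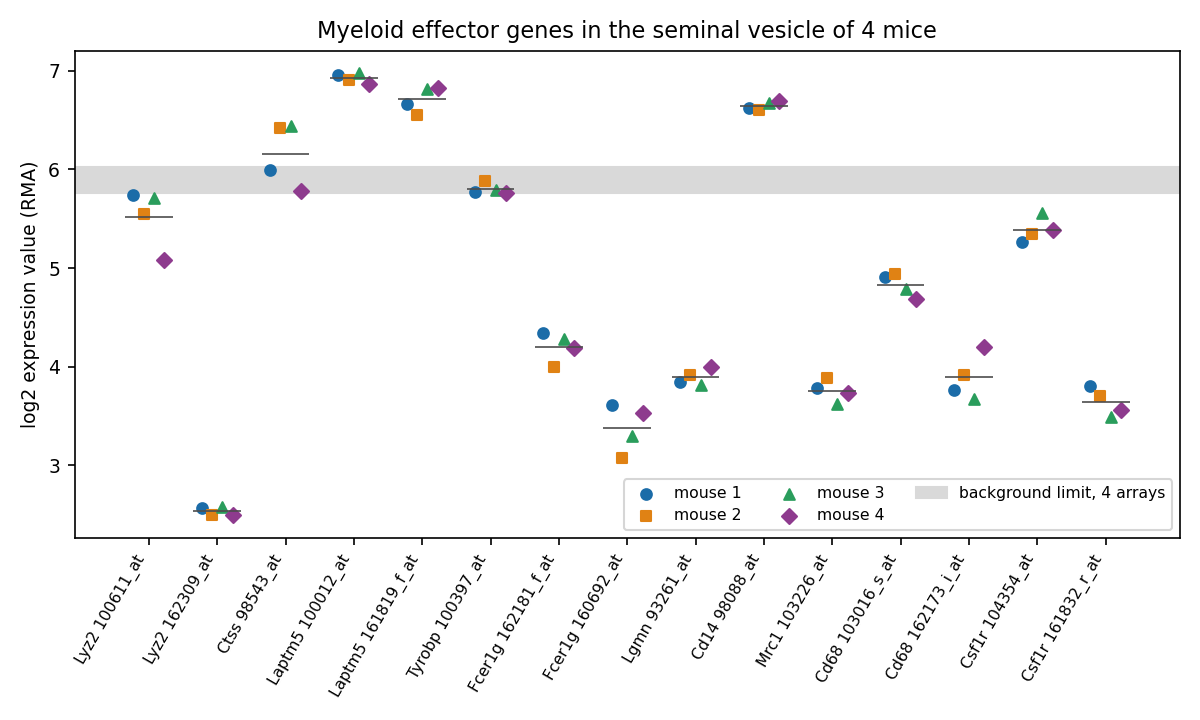
Log2 expression values (vertical axis) of the 15 probe sets of the 10 genes, with 1 point per mouse and a line at the 4-mouse mean. The grey band spans the background limits of the 4 arrays, 5.76 to 6.02. Both Laptm5 probe sets and Cd14 lie above the band, Ctss straddles it, and the points of Ctss and of the brighter Lyz2 probe set are the most widely spread.

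Among the lysosomal enzymes and lysozyme, Ctss and Lyz2 had the widest spread of the 15 probe sets, and both were lowest in mouse 4. Ctss encodes cathepsin S, the cysteine protease that trims the invariant chain of MHC class II molecules. Its probe set 98543_at read 5.99, 6.42, 6.44 and 5.78 in mice 1 to 4. Mice 2 and 3 were nearly equal, mouse 1 was lower and mouse 4 lowest, 1.59-fold below mouse 3. It exceeded the background limit in 2 of 4 mice. The SD was 0.33, which is 2.65 times the SD that limma's model gives for probe sets of its signal (unadjusted p = 0.0124, adjusted p = 0.629 over 12422 probe sets). The spread of Ctss was therefore not called.

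Lyz2 encodes the lysozyme of macrophages and granulocytes. Its brighter probe set, 100611_at, read 5.74, 5.55, 5.71 and 5.08 in mice 1 to 4. Mice 1 to 3 lay close together and mouse 4 was lower than each of them, 1.58-fold below mouse 1. All 4 values were under the background limit. The SD was 0.31 (limma, unadjusted p = 0.0211, adjusted p = 0.741), and it fell to 0.10 without mouse 4 (limma, adjusted p = 0.995), while Ctss kept an SD of 0.25 (limma, adjusted p = 0.949). Mouse 4 held the extreme value of both genes, and leaving out the extreme value lowers an SD by itself. The dimmer Lyz2 probe set, 162309_at, read 2.56, 2.49, 2.57 and 2.49 and showed no such dip in mouse 4. A further probe set, 101753_s_at, is annotated to Lyz2 and its near-identical neighbour Lyz1 together and was not counted among the 15. It read 6.35, 5.69, 6.56 and 5.67, so mice 1 and 3 were high and mice 2 and 4 low (SD 0.45, limma, unadjusted p = 0.00171, adjusted p = 0.244). The dimmer Lyz2 probe set had mice 1 and 3 above mice 2 and 4 as well, over a range of 0.08, whereas 100611_at put mouse 2 near mice 1 and 3. Which transcript each read cannot be told apart with these data.

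Promoter sequence is shown for these widest-spread genes and for Mrc1, whose window held the most matches to the motifs named below. The values of Mrc1 were all under the background limit. A link between matches and spread was not tested. Of the 10 genes, 7 had an entry in the RefSeq promoter table (GRCm38.p6), and Tyrobp, Cd14 and Csf1r had none. The 250 bases before the annotated start were searched on both strands for GAGGAA and AGGAAGT, purine-rich cores of the kind bound by ETS factors such as PU.1, the myeloid regulator. The motifs share the letters AGGAA and can overlap, and they were chosen after the sequences were seen. Capitals mark matches, which on the opposite strand read TTCCTC and ACTTCCT. The sequences read 5′ to 3′ on the gene's strand, from chr3:95526536-95526785 (plus strand) for Ctss, chr10:117282273-117282522 (minus strand) for Lyz2 and chr2:14229164-14229413 (plus strand) for Mrc1.
Ctss: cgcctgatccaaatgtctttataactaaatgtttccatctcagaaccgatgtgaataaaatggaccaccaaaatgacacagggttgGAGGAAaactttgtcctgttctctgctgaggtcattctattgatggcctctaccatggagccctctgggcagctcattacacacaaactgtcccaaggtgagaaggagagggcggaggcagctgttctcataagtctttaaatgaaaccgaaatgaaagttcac
Lyz2: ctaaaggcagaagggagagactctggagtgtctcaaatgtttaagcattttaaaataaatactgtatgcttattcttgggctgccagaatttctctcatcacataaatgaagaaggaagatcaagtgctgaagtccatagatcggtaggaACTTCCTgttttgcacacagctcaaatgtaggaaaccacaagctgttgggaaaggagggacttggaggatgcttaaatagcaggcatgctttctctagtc
Mrc1: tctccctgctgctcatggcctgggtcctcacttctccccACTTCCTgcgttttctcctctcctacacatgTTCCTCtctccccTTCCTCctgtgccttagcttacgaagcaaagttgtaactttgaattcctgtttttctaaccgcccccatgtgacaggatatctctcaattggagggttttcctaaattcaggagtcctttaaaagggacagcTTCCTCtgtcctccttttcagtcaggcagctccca
Ctss held 1 match, whose first base lay 164 bases before the start. Lyz2 held 1 match at 100 bases, and Mrc1 held 4 matches, of which the nearest began at 35 bases. Cd68 and Laptm5 held 1 each, Laptm5 at 38 bases and Cd68 at 225 bases, and the windows of Fcer1g and Lgmn held none. The Laptm5 window overlapped the annotated genes Gm38599 and Laptm5 itself, and a further Lgmn window overlapped Lgmn. GAGGAA occurred in 23.3% of all 32851 windows of this length, AGGAAGT in 7.7% and either of them in 27.3%, so a match is common. A match describes the letters only.

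Lgmn encodes legumain, the lysosomal asparaginyl endopeptidase. It read 3.84, 3.91, 3.81 and 4.0 in mice 1 to 4 (SD 0.08), under the limit throughout. Mouse 4 was highest and mouse 3 lowest, the reverse of Ctss at the extremes, over a range of 0.18.

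The lysosomal membrane proteins had SDs of 0.05 and 0.11 by their brighter probe sets. Laptm5, a lysosomal protein of blood cells that helps to take down antigen receptors, read 6.96, 6.91, 6.98 and 6.87 (SD 0.05), above the limit in every mouse. Its range of 0.11 corresponds to 1.08-fold. A family-type probe set of the same gene, 161819_f_at, read 6.66, 6.55, 6.82 and 6.83 (SD 0.14), also above the limit in all 4 mice. The pair disagreed on mouse 4, which was lowest by the former and highest by the latter, at differences within the general spread. Cd68, the heavily glycosylated protein of macrophage endosomes and lysosomes, read 4.91, 4.94, 4.79 and 4.69 (SD 0.11), under the limit throughout. Mouse 4 was lowest there too, 1.19-fold below mouse 2. Its dimmer probe set, 162173_i_at, had mouse 4 highest instead, at 4.20 against 3.76, 3.91 and 3.67 (SD 0.23, limma, unadjusted p = 0.0722, adjusted p = 0.956).

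The ITAM adaptors, small membrane proteins whose cytoplasmic tyrosines recruit the kinase SYK, showed no common order of the mice. Tyrobp, the adaptor of TREM and related receptors, read 5.77, 5.88, 5.79 and 5.76 (SD 0.06), close to the limit and above it in 1 of 4 mice. Fcer1g, the shared gamma chain of Fc receptors, read 4.34, 4.0, 4.28 and 4.19 by its brighter probe set 162181_f_at (SD 0.15). Its other probe set, 160692_at, read 3.61, 3.07, 3.30 and 3.53 (SD 0.24, limma, unadjusted p = 0.0448, adjusted p = 0.905). Mouse 2 was lowest and mouse 1 highest by both, and all 8 values were under the limit. Without mouse 2, which held its extreme value, the SD of 160692_at was necessarily lower, at 0.16 (limma, adjusted p = 0.983).

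The surface receptors had SDs of 0.04 to 0.14. Cd14, the co-receptor that passes lipopolysaccharide to Toll-like receptor 4, read 6.62, 6.60, 6.67 and 6.69 (SD 0.04), above the limit in every mouse, with a range of 0.09 or 1.06-fold. Mrc1, the mannose receptor, read 3.78, 3.88, 3.62 and 3.73 (SD 0.11), with mouse 2 highest and mouse 3 lowest. Csf1r, the receptor on which macrophage survival depends, read 5.26, 5.35, 5.56 and 5.39 (SD 0.12), with mouse 3 highest and mouse 1 lowest. Its second probe set, 161832_r_at, read 3.80, 3.70, 3.49 and 3.56 (SD 0.14) and put mouse 3 lowest. All Mrc1 and Csf1r values were under the limit.

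The spread between mice was tested in every probe set of the array, as its variance over the 4 mice against the variance limma's model gives for its signal. With 1 array per mouse, this spread cannot be split into animal, RNA and array. At an adjusted p of 0.05, 0 of the 15 passed, where 0.282% of all probe sets were. At an unadjusted p under 0.05 stood 3 of the 15, those of Ctss, Lyz2 and Fcer1g named above, beside 5.44% of all probe sets. Without mouse 4 the count was 1, with no share over all probe sets at hand for that setting. At the signal of the 15 probe sets a call needed an SD of 0.52 to 0.68, and 0.65 for Ctss, so spreads of the size seen here were below what 4 arrays could call. The median SD of the 10 genes by their brightest probe sets was 0.11, the same as the median over all probe sets.

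**Figure D2:**
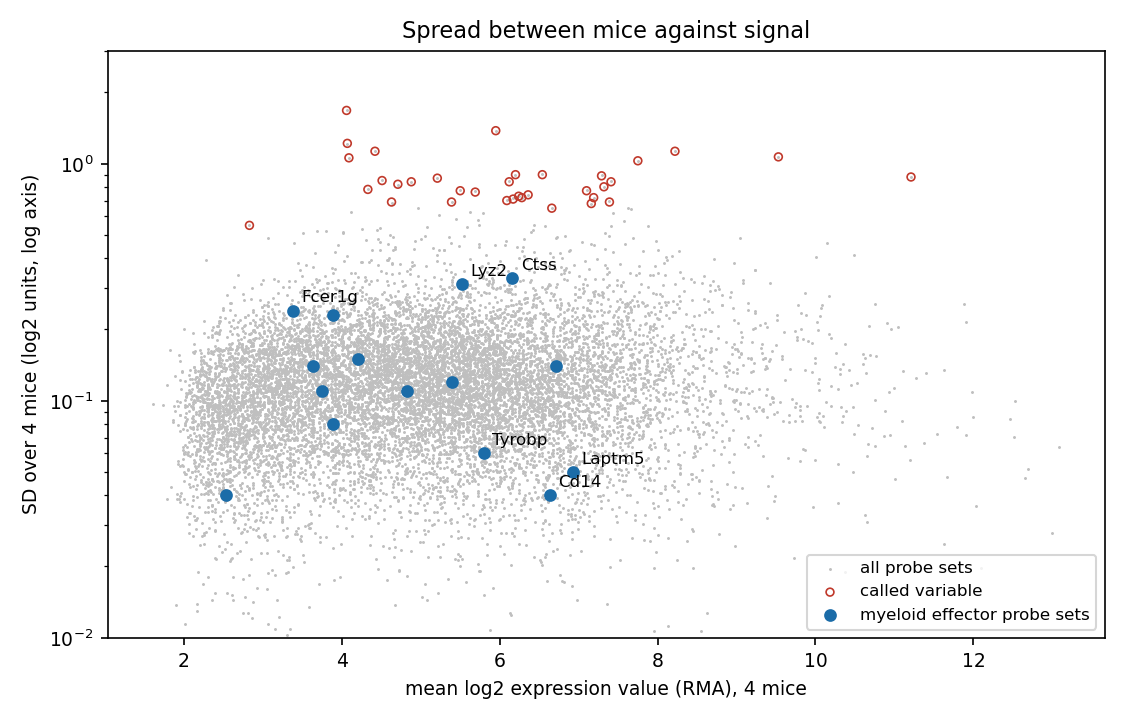
SD over the 4 mice (vertical log axis, log2 units) against mean log2 expression value for all 12422 probe sets (grey; the few with an SD under 0.01 are not drawn), the 35 called variable (open red circles) and the 15 probe sets of the myeloid effector genes (blue). Ctss and Lyz2 are the highest of the blue points, at SDs of 0.33 and 0.31, and none is among the called probe sets.

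The 10 genes did not share an order of the mice. By brightest probe sets the deviations of the genes from their 4-mouse means averaged 0.01, 0.03, 0.05 and -0.09 in mice 1 to 4, a range of 0.15. Without mouse 4, which held the extreme mean, the range was 0.04, and with all probe sets of a gene averaged it was 0.05. Mice 3 and 4 were known from an earlier account of these same data, so their counts here and below are descriptions. Mouse 4 was lowest in 5 of the 10 genes, Lyz2, Ctss, Laptm5, Tyrobp and Cd68, beside 20.6% of all genes. Tyrobp left this group under both rescalings of the arrays. Mouse 3 was highest in 3 of them, Ctss, Laptm5 and Csf1r, beside 26.3% of all genes, and in 2 of them under either rescaling. The 0.11 range of Laptm5 makes its place in both groups a matter of small differences.

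**Figure D3:**
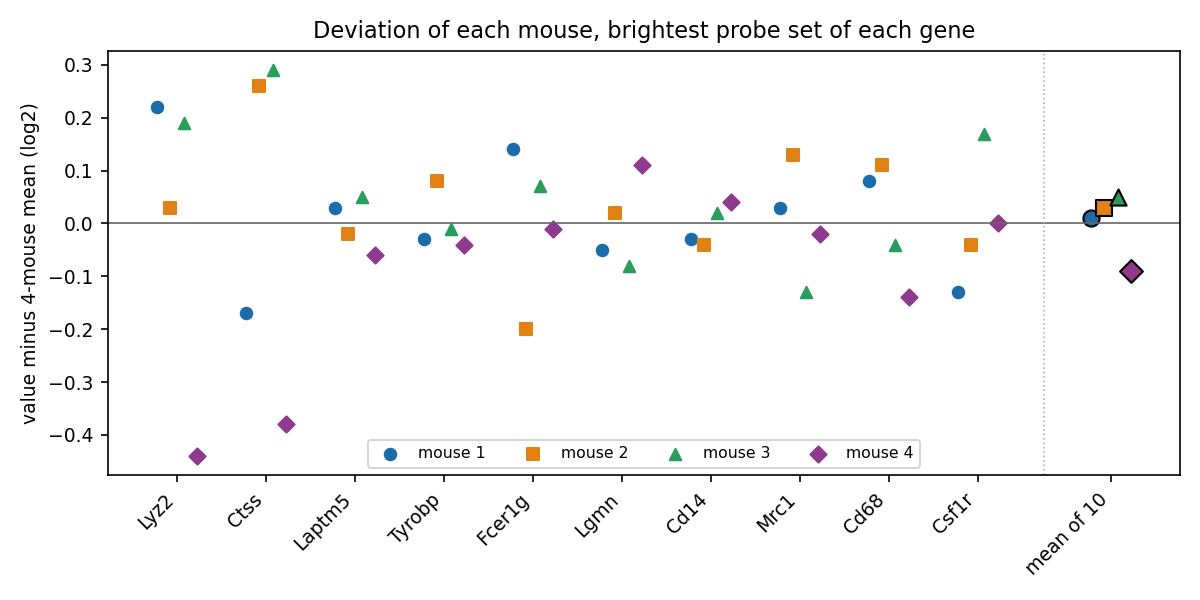
Deviation of each mouse from the 4-mouse mean (log2 units, vertical axis) for the brightest probe set of each of the 10 genes, with their mean at the right. Mouse 4 is lowest in Lyz2, at -0.44, and in Ctss, at -0.38 with mouse 1 also low at -0.17, whereas the other 8 genes stay between -0.20 and 0.17.

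The flat mean profile made many genes resemble it. The 5 genes outside the 10, and above the background range, whose deviations over the 4 mice differed least from that mean were Pef1, Zc3h15, Ddx39b, Ewsr1 and Acvrl1, with root mean square differences of 0.005 to 0.011 log2 units. Their own SDs were 0.05 to 0.08. Of 2692 such genes, 47.0% lay as near to the mean profile as the median of the 10 genes did (0.107). Likeness over 4 mice therefore singled out no gene.

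Genes that work with the effector genes were counted in the same way. Of the list of macrophage identity and transcription genes, 27 were measured besides the 10, and 8 were above the background range. These included Cebpa, a myeloid transcription factor gene that epithelia also use, at 6.35, 6.12, 6.39 and 6.18, and the fractalkine receptor gene Cx3cr1 at 6.43, 6.17, 6.20 and 6.17. The list's deviations were 0.02, 0.01, 0.10 and -0.12 in mice 1 to 4. Of the 27 genes, 14 were highest in mouse 3, beside 26.3% of all genes, and 16 lowest in mouse 4, beside 20.6%. Among the 8 above the range the counts were 5 and 4. The whole list had a median SD of 0.15, and 0 of its genes were called by limma (1 with p under 0.05 unadjusted). Over all genes by their brightest probe sets, 4.93% had an unadjusted p under 0.05 and 0.194% were called (limma). These shares apply to every list below. The macrophage receptor gene Adgre1 read 4.81, 4.94, 5.07 and 4.70, under the limit.

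Lysosomal proteases and their inhibitors, which most cells express, were above the range in 9 of 18 genes. The cathepsin genes Ctsb (8.46, 8.63, 8.35 and 8.51) and Ctsd (9.11, 9.32, 9.03 and 9.26) peaked in mouse 2 and were lowest in mouse 3, unlike Ctss. Of the 18 genes, 8 were highest in mouse 2 and 7 in mouse 3, the latter beside 26.3% of all genes. Ctsh and Cst7, neither above the range, were the 2 with the order of the mice in Ctss, an order that 3.71% of all genes had. The list's deviations were -0.04, 0.11, -0.02 and -0.04, its median SD was 0.14, and 0 genes were called by limma (2 with p under 0.05 unadjusted). The ITAM and Fc receptor signalling list had 4 of 16 genes above, among them the kinase gene Syk (6.81, 6.70, 6.82 and 6.71) and the exchange factor gene Vav1 (6.06, 6.05, 6.09 and 6.29). Its median SD was 0.11, with 0 genes called by limma and 0 at an unadjusted p under 0.05. The CD14 and Toll-like receptor list had 4 of 11 above, with the lipopolysaccharide-binding protein gene Lbp at 6.09, 6.18, 6.18 and 6.33. The kinase gene Irak1 in that list read 6.97, 7.58, 7.70 and 7.18 (SD 0.34, limma, unadjusted p = 0.0106, adjusted p = 0.588). It was not lowest in mouse 4, and the list had 0 called genes (limma; 1 at an unadjusted p under 0.05) and a median SD of 0.08.

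Ligands and receptors of the CSF family were above the range in 5 of 9 genes. Csf1, the ligand of the CSF1 receptor, read 6.47, 6.40, 6.39 and 6.51, and Csf3, the granulocyte factor gene, read 6.19, 6.16, 6.21 and 6.15. The list's median SD was 0.07, and 0 genes were called by limma (0 with p under 0.05 unadjusted). Scavenger and mannose receptors were above in 2 of 9 genes, Mrc2, a relative of Mrc1, at 6.08, 5.96, 6.01 and 6.21, and the lipoprotein receptor gene Scarb1 at 6.68, 6.50, 6.49 and 6.51. That list had a median SD of 0.09 and 0 called genes (limma; 1 at an unadjusted p under 0.05).

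As lists, antigen presentation genes and B and plasma cell genes also had their lowest mean deviation in mouse 4, the mouse with the least Ctss. In the MHC class II and dendritic cell list, 7 of 10 genes were above the range, with deviations of -0.07, 0.08, 0.13 and -0.13. Mouse 3 was highest in 6 of the 10, beside 26.3% of all genes, and mouse 4 lowest in 6, beside 20.6%. The list's first genes were Cd74, the invariant chain gene (9.08, 9.47, 9.58 and 8.81), and H2-Aa (7.90, 8.25, 8.29 and 7.70). By limma 0 of the 10 were called (4 at an unadjusted p under 0.05, beside 4.93% of all genes). Ctss, Cd74 and H2-Aa had the mice in the same order from high to low, 3, 2, 1, 4, as did 3.71% of all genes, and 4 of the 10 genes of that list had it. For Ctss, mice 2 and 3 changed places when each array was shifted to the same median. In the B and plasma cell list, whose deviations were -0.06, 0.19, 0.21 and -0.34, 3 of 9 genes were above the range. Mouse 4 was lowest in 3 of the 9, beside 20.6% of all genes, and highest in 3, so the list did not fall in mouse 4 gene by gene. By limma 3 of the 9 were called, where 0.194% of all genes by their brightest probe sets were. The called genes, named after their values were seen, were all lowest in mouse 4: the IgM gene Ighm at 8.51, 9.14, 8.67 and 6.57 (limma, adjusted p = 0.00733), the IgA gene Igha at 7.0, 7.96, 7.98 and 6.34 (limma, adjusted p = 0.0242), and Jchain at 5.86, 6.55, 6.74 and 5.20 (limma, adjusted p = 0.0332). Without mouse 4 these calls ended, at adjusted p of 0.860, 0.255 and 0.378 (limma). Mouse 4 held the extreme value of all 3 genes, so leaving it out lowers their SDs by itself. With all mice kept, none of the 3 was called among probe sets above the median signal (limma, adjusted p = 0.0614, 0.0857 and 0.0912). The same held above the background limit (limma, adjusted p = 0.128, 0.171 and 0.172). With a non-robust prior fit Ighm alone was called (limma, adjusted p = 0.0197). Jchain was also not called with each array shifted to the same median (limma, adjusted p = 0.0593). The mean log2 value of that list was 5.94, 6.19, 6.21 and 5.66 in mice 1 to 4. Its surface markers Cd79a (6.13, 5.84, 5.90 and 6.17) and Cd79b (4.93, 4.89, 5.12 and 5.0) were not lowest in mouse 4. The part of B, plasma or dendritic cells in the Ctss and Lyz2 values was not tested.

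The remaining cell type lists are given for comparison. Erythrocyte genes deviated by -0.09, 0.20, -0.24 and 0.14 (1 of 5 above the range), with Hba-a1 at 7.88, 8.51, 7.70 and 8.39 and Hbb-b2 at 4.19, 5.31, 4.30 and 4.65. These globin genes were highest in mouse 2, whereas the rest of the list was not. Alas2 was highest in mouse 1 (5.73, 5.51, 5.22 and 5.57), and Slc4a1 and Epb42 were highest in mouse 4. Neutrophil genes were above the range in 0 of 10 cases and deviated by -0.01, -0.11, -0.01 and 0.12, with S100a8 at 3.44, 3.32, 3.59 and 3.58 and S100a9 at 3.24, 3.21, 3.24 and 3.28. Mast cell genes, relevant to Fcer1g, were above in 1 of 9 cases and deviated by 0.05, -0.10, 0.08 and -0.03, with Cma1 at 5.81, 5.49, 5.89 and 5.58 and Mcpt4 at 2.34, 2.27, 2.39 and 2.26. T and NK cell genes were above in 2 of 10 and deviated by 0.01, -0.04, 0.07 and -0.04, with Cd3e at 6.11, 6.03, 6.31 and 6.29 and Cd3d at 2.92, 2.98, 2.94 and 2.88. Smooth muscle genes were above in 7 of 8 and deviated by 0.28, -0.15, -0.03 and -0.10, with Acta2 at 9.12, 8.57, 8.91 and 8.64 and Myh11 at 9.80, 9.59, 9.69 and 9.34. Genes of the secretory epithelium were above in 7 of 8 and deviated by -0.07, 0.13, -0.07 and 0.01. Of the macrophage markers fixed for checking the cell type, 6 were measured, Adgre1, Csf1r, Cd68, Cd14, Mrc1 and Aif1, and Cd14 alone was above the range. Their mean deviations were -0.02, 0.01, 0.06 and -0.05, the same order of the mice as in Ctss, over a range of 0.12. Of the 6 genes, 1 had that order itself, beside 3.71% of all genes. Mouse 4 was lowest in 2 of the 6, beside 20.6% of all genes, and was highest in Cd14.

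**Figure D4:**
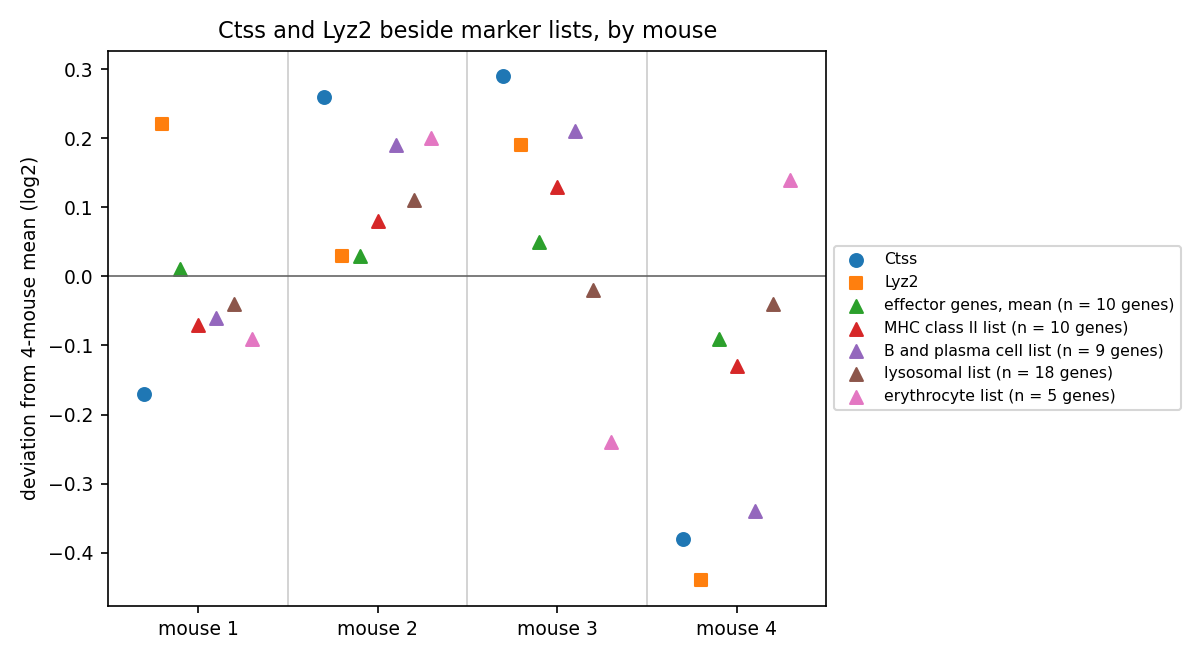
Deviation from the 4-mouse mean (log2 units, vertical axis) in each mouse for Ctss, Lyz2 (brighter probe set), the mean of the 10 effector genes and the means of 4 marker lists. In mouse 4 the lowest points are Lyz2, Ctss and the B and plasma cell list, at -0.44, -0.38 and -0.34, while the erythrocyte list stands at 0.14.

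Array medians lay between 4.95 and 4.98, which RMA largely fixes, and pairs of arrays had a Pearson's r of 0.992 to 0.994 taken over probe sets, which are no replicates. For the beta-actin control, the 3′ probe set minus the 5′ probe set, a sign of RNA length, was 1.08, 0.82, 1.02 and 0.98 in mice 1 to 4, and for Gapdh it was -0.12, -0.15, -0.15 and -0.13. Each array has its own animal number in the labels, which name no litter, cage or hybridisation batch. With 1 array per mouse, the animal, its RNA and its array cannot be told apart. Their parts in the values of mouse 4 were not tested.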

How the data were processed

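The table holds 12488 probe sets on 4 arrays of 1 group, 1 array per mouse. The authors computed these log2 values by RMA before deposit, according to the submitters' processing notes. For its version and the set of arrays it was run on, the sources used here give nothing. The log2 scale was read from the values (1.47 to 13.18). RMA, rather than the log2 scale, compresses differences at low signal and cancels shifts common to a whole array. The 66 control probe sets were kept out, which left 12422. Names came from the platform annotation, updated by gene ID through a RefSeq table (GRCm38.p6). A probe set had 1 gene in 10833 cases (10817 matched by gene ID), several in 396 and none in 1193. A gene was represented by its brightest probe set.

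Variances (3 residual degrees of freedom) were tested by an upper-tail F test against limma's robust, signal-dependent prior (8.06 degrees of freedom), with Benjamini-Hochberg adjustment over 12422 probe sets at 0.05. The test was checked on simulated data. Named genes were every probe set of the 10 genes, the first 2 measured genes of each list (for pathway lists, of those above the range) and the 5 genes of nearest profile. The members, the lists and the mice counted as highest or lowest were chosen with earlier results of these data known. The number of arrays, 4, limits the precision, and p-values describe these mice only. Alternatives covered scaling, mice, prior, dim probe sets, background limit and ways to combine probe sets. R 4.3.3, limma 3.58.1, Python 3.11.15 and matplotlib 3.10.9 were used.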

Additional observations from a re-analysis of the deposited data

How the results depend on the processing

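The count of the 15 probe sets called variable was 0 under every alternative run: both rescalings of the arrays, leaving out each mouse, both other prior fits and both filters on dim probe sets. The lowest adjusted p of any of them was 0.520 (limma), for Ctss without mouse 1. Over all probe sets 35 were called, against 15 with a non-robust prior fit, 1 among probe sets above the median signal, 0 among those above the background limit (limma) and 17 to 44 when a mouse was left out, the lowest without mouse 4 and 23 without mouse 2. The number of the 10 genes above the background range was 2, and 6 with the 75th percentile as limit (57.2% of all genes) or with each array's median (55.4%). The 6 were Lyz2, Ctss, Laptm5, Tyrobp, Cd14 and Csf1r under either limit. It stayed at 2 with the 95th percentile and when any mouse was left out.

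The range of the mean deviation of the 10 genes was 0.15. It was 0.05 with all probe sets of a gene averaged, 0.07 with the 2 genes above the range alone, and 0.04 to 0.15 when a mouse was left out, lowest without mouse 4. Mouse 3 was highest in 3 genes, in 1 of the 2 above the range, and in 4 to 5 when another mouse was left out, the most without mouse 1, where 34.8% to 35.6% of all genes were. Mouse 4 was lowest in 5 genes, in 1 of the 2 above the range, and in 5 to 6 when another mouse was left out, where 26.2% to 32.2% of all genes were. The cause of these changes was not tested, except that a filter leaves fewer genes. Counts for a mouse could not be given without that mouse. No paired analysis was possible because the labels give 1 group.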

Other observations

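Products of activated macrophages were not above the background range in these glands, which does not show that they were silent. Of 18 measured genes of that list, 0 were above the range, where 32.7% of all measured genes were. By limma 0 of the 18 were called (2 with p under 0.05 unadjusted, beside 4.93% of all genes). The nitric oxide synthase gene Nos2 read 3.54, 3.46, 3.50 and 3.87 in mice 1 to 4, and the arginase gene Arg1 read 3.35, 3.17, 3.06 and 3.37, both under the limit. The chemokine gene Ccl2 read 3.61, 3.03, 3.27 and 3.55 (SD 0.27, limma, unadjusted p = 0.0289, adjusted p = 0.801), with mouse 2 lowest. The galectin gene Lgals3 read 2.90, 3.45, 3.03 and 2.90 (SD 0.26, limma, unadjusted p = 0.0235, adjusted p = 0.749), with mouse 2 highest. These last genes were named after their values were seen.

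The complement gene C1qb, also named after its values were seen, read 6.20, 6.32, 6.60 and 5.73 (SD 0.36, limma, unadjusted p = 0.00659, adjusted p = 0.474). It was not above the background range, with mouse 4 under the limit. It had the mice in the order 3, 2, 1, 4 from high to low, as Ctss did. That order was held by 3 of the 27 macrophage identity and transcription genes, beside 3.71% of all genes. The cathepsin gene Ctsl, chosen likewise, read 7.80, 8.75, 8.03 and 8.12 (SD 0.41, limma, unadjusted p = 0.00429, adjusted p = 0.386) and was highest in mouse 2.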
